A study of Bos taurus with 8 samples.

Results

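The EEF1D-1893 short hairpin RNA (shRNA) was compared with cells without shRNA in cultured bovine mammary epithelial cells (BMECs), the milk-secreting cell type of the udder. The members were chosen by their titles: 3 arrays of cells carrying EEF1D-1893 and 2 of control cells without shRNA, or 5 of the 8 arrays of the study. The other 3 arrays carried a second hairpin against the same gene, EEF1D-1357, and entered the model only for its estimate of the spread between arrays. All groups shared 1 source: primary BMECs at the fifth passage, isolated from mammary tissue of a lactating Holstein cow. Total RNA was labelled with Cy3 and hybridised to one-colour Agilent arrays. The labels give the shRNA groups as EEF1D knockdown, name no array with a non-targeting hairpin, and do not say how the hairpin was delivered or how long the cells carried it. An effect of carrying any hairpin and an effect of lower EEF1D therefore cannot be told apart. Nor do the labels tie replicates to separate cultures. The p-values then reflect no more than the scatter of these arrays, which may be technical.

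EEF1D is the delta subunit of translation elongation factor 1. During elongation, eEF1A carries each aminoacyl-tRNA to the ribosome and hydrolyses GTP. The complex of EEF1D, EEF1B2 and EEF1G then exchanges the spent GDP for GTP, so that eEF1A can bind the next aminoacyl-tRNA. In the lactating mammary gland this machinery serves the synthesis of milk proteins, while the same epithelial cells make milk fat from acetate and from fatty acids taken up from blood.

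Values below are log2 spot intensities minus the 75th percentile of the array, called scaled log2 signal, with 1 probe per gene for 12617 genes. Values of different genes are not compared, since probes differ in brightness. The arrays lay on 2 slides: the 3 EEF1D-1893 arrays and control replicate 1 shared a slide, while control replicate 2 lay on the other slide with the EEF1D-1357 arrays. The 75th percentile of intensity was 1613 to 2033 units on the EEF1D-1893 arrays, 1276 on control replicate 1 and 1857 on control replicate 2. Between 63.7% and 71.63% of probes were well above background on these 5 arrays. The 2 controls differed from each other by more than the EEF1D-1893 arrays did among themselves: across genes, log2 differences had an SD of 0.83 for the pair of controls and 0.569 to 0.648 for pairs of hairpin arrays. The spike-in probes exceeded the 75th percentile by 1.67 log2 units on control replicate 1, by 0.77 on control replicate 2 and by 0.48 to 0.98 on the EEF1D-1893 arrays.

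The targeted gene was covered by 4 probes of 60 bases, whose positions show which stretches of the transcript were read. A pair of them overlap around the stop codon by 33 bases, shown here as that stretch alone, with the 1 base at which they differ in capitals. The difference is T22A, counted from 1 at the first base of A_73_115715. The other 2 probes, shown whole, lie nearer the start of the gene. The sequences are those of the deposited scanner files, 5′ to 3′, and all 4 probes were placed by those files on chromosome 14 of the Btau_3.1 build.
A_73_115715: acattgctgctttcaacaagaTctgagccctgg
A_73_P279701: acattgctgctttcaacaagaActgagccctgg
A_73_P159712: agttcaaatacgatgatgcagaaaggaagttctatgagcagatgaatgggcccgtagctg
A_73_P265551: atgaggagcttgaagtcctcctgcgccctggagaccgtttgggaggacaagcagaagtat
The whole probes span 938301 to 938360 (A_73_115715), 938160 to 938333 (A_73_P279701, whose span is longer than the probe), 934089 to 934148 (A_73_P159712) and 931228 to 931287 (A_73_P265551). The last was assigned to an Ensembl transcript, and the other 3 to the RefSeq mRNA.

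EEF1D signal was lower in all 3 EEF1D-1893 arrays than in either control at the brightest probe, but the difference did not pass the test. At A_73_115715 the EEF1D-1893 arrays read 5.99, 5.74 and 5.76, control replicate 1 read 7.11 and control replicate 2 read 6.14. The hairpin arrays lay close together, and control replicate 2 lay nearer to them than to the other control. Against both controls the log2 difference was -0.80 (SE 0.36), or 57.5% of the control level (limma adjusted p = 0.374). Against control replicate 1 alone it was -1.29 (SE 0.36), or 41.0% (adjusted p = 0.063), and against control replicate 2 alone it was -0.31. The overlapping probe A_73_P279701 gave -0.74 (SE 0.35) against both controls and -1.18 (SE 0.37) against control replicate 1. A_73_P159712 gave -0.75 (SE 0.53) and -1.41 (SE 0.59). It read -0.09, -0.44 and -0.38 in the hairpin arrays and 1.11 and -0.22 in the controls, so control replicate 2 lay among the hairpin arrays. The dim probe A_73_P265551 read -4.65, -4.66 and -4.79 in the hairpin arrays and -3.91 and -5.26 in the controls, so the groups overlapped there.

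**Figure D1:**
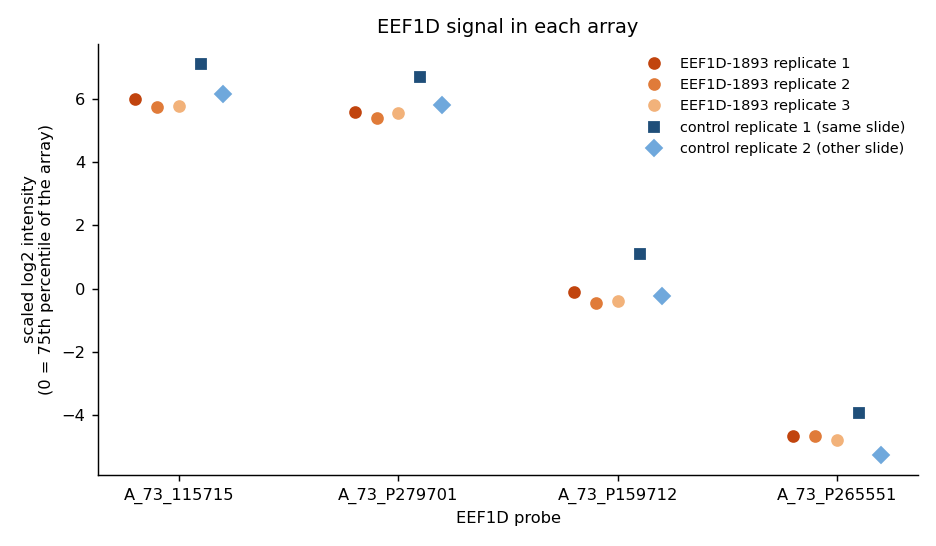
Scaled log2 signal (vertical axis, 0 is the 75th percentile of the array) of the 4 EEF1D probes in each array. Circles are the 3 EEF1D-1893 arrays, the square is control replicate 1 on the same slide and the diamond is control replicate 2. At A_73_115715 the hairpin arrays lie at 5.74 to 5.99 and both controls lie above them, at 6.14 and 7.11, while at A_73_P265551 control replicate 2 lies below the hairpin arrays.

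The partners of EEF1D in the exchange complex read much the same in the hairpin arrays and control replicate 2. EEF1B2 stood at 6.63, 6.42 and 6.52 with EEF1D-1893 and at 6.81 and 6.54 in the controls. EEF1G stood at 5.50, 5.49 and 5.60 against 6.03 and 5.49. These 2 genes were named after their values were seen. EEF1A1, which encodes eEF1A itself, read 7.53, 7.52 and 7.42 against 7.77 and 7.63, a log2 difference of -0.21 (SE 0.14) against both controls that turned to 0.03 with background correction by normexp and quantile normalization. In that gene 8 of 9 probes had the same sign.

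Against both controls, 0 of 12617 genes passed an adjusted p of 0.05 in limma, and the smallest adjusted p was 0.122. Before adjustment, 855 genes (6.78%) were higher and 923 (7.32%) lower with a p under 0.05. All 3 EEF1D-1893 arrays lay above both controls for 1723 genes (13.7%) and below both for 1842 (14.6%). Without control replicate 1 the test called 6 genes higher and 19 lower. The genes given next did not pass. They had the smallest p-values in each direction among genes well above background on every array compared and with the groups apart. GNAO1, with a limma adjusted p of 0.122, was at background in the hairpin arrays and is described further below.

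Among those higher with EEF1D-1893, NID2, which encodes the basement membrane protein nidogen-2, read -1.44, -1.59 and -1.67 against -3.17 and -2.59 in the controls. TOX, a DNA-binding factor of the HMG-box family, read -1.19, -2.30 and -1.92 against -4.07 and -3.91. UGDH, which makes UDP-glucuronate for glycosaminoglycans, read 1.63, 1.67 and 1.70 against 0.57 and 0.72. In each of these genes the hairpin arrays stood clear of both controls, as the choice of genes required. The log2 differences were 1.32 (SE 0.19) for NID2, 2.19 (SE 0.33) for TOX and 1.02 (SE 0.17) for UGDH. Over the probes of each gene they ranged from 0.74 to 1.32 for NID2, from 0.93 to 2.19 for TOX and from 0.06 to 1.02 for UGDH. Against control replicate 1 the 4 UGDH probes ranged from -0.33 to 1.10. The other 5 were HENMT1 (1.28), a methyltransferase of small RNAs, SLC35G2 (1.72), MAT1A (1.11), which makes S-adenosylmethionine, RAD17 (0.99), a checkpoint clamp loader, and SOAT2 (1.65), which esterifies cholesterol. Adjusted p in limma lay between 0.165 and 0.191 for these 8 genes.

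Among those lower, CRNN, a protein of the cornified cell layer of squamous epithelium, had the widest separation, at 0.31, -0.01 and -0.13 against 3.18 and 2.87 (log2 difference -2.97, SE 0.42). QPRT, an enzyme of NAD synthesis, read 2.30, 2.46 and 2.48 against 3.52 and 3.48. NEK6, a kinase of mitosis, read 2.08, 2.38 and 2.22 against 3.22 and 3.33. LTBP3, which binds latent TGF-beta, read 1.48, 1.55 and 1.57 against 2.53 and 2.51, although 1 of its 3 probes had the opposite sign. The controls lay close to each other for these genes, as the choice by small p favours, since the control spread enters the test. The log2 differences were -1.09 (SE 0.15) for QPRT, -1.04 (SE 0.15) for NEK6 and -0.99 (SE 0.13) for LTBP3. The other 4 were TNIK (-1.12), a kinase of Wnt signalling, ERAS (-1.08), a Ras-like GTPase, ARGLU1 (-0.88) and FAM76B (-1.09). Adjusted p was 0.165 for these 8 genes.

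**Figure D2:**
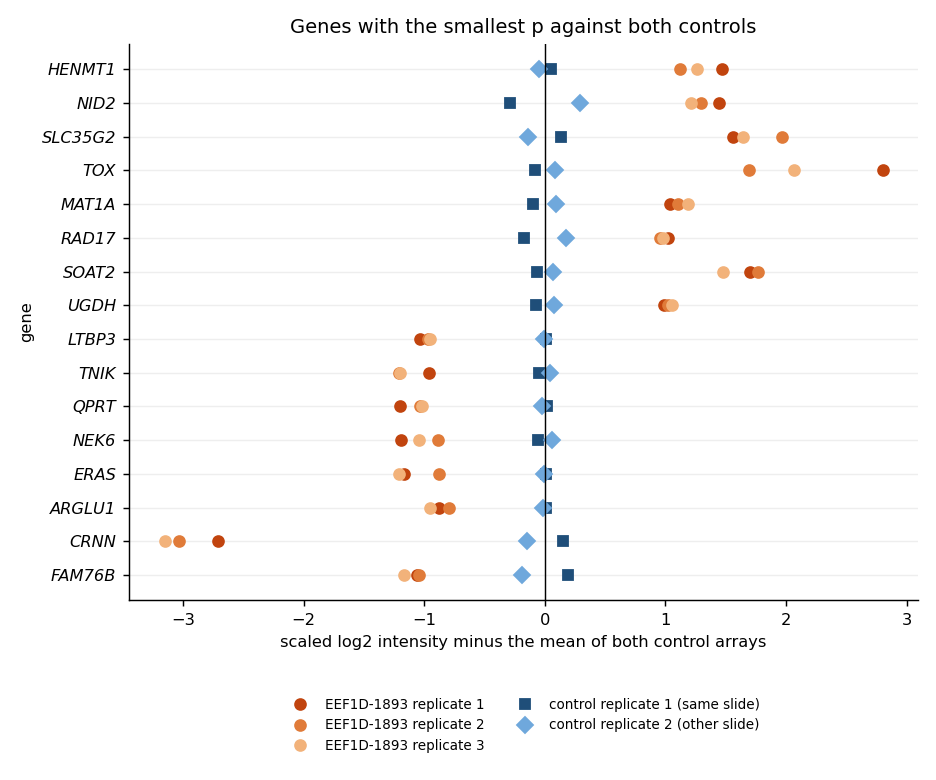
Scaled log2 signal minus the mean of both control arrays (horizontal axis) for 16 genes, 8 in each direction. They had the smallest p against both controls among genes well above background on every array shown and with the groups apart. Circles are the EEF1D-1893 arrays, squares control replicate 1 and diamonds control replicate 2. The genes were selected for this separation, with CRNN farthest to the left at a mean of -2.97 and TOX farthest to the right at 2.19; none passed the test.

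Some genes were well above background on all arrays of one side and on none of the other, 9 of them higher and 53 lower with EEF1D-1893. For these only a lower bound of the fold is given, with each dim array set no lower than its lowest well-measured signal; bounds without 1 array were added after the data were seen. OLR1, a receptor for oxidised LDL, was at least 3.03-fold higher, and SLC5A8, a monocarboxylate transporter, at least 2.79-fold higher. GRIP2, a scaffold protein of glutamate receptors, read -3.40, -2.18 and -5.62 with EEF1D-1893 and was at least 3.70-fold higher. That bound was 2.16-fold without the second EEF1D-1893 array and 7.12-fold without the third. GNAO1, a G-protein alpha subunit, read -3.26 and -4.48 in the controls and was at least 3.41-fold lower, with a bound of 2.24-fold without control replicate 1 and 5.21-fold without control replicate 2. For the other 2 genes 1 control set most of the bound. FUT6, a fucosyltransferase, read -2.08 and -4.54 in the controls and was at least 4.91-fold lower, but 2.09-fold without control replicate 1 and 11.5-fold without control replicate 2. TMEM74 read -5.22 and -1.74 in the controls and was at least 4.42-fold lower, but 1.32-fold without control replicate 2 and 14.8-fold without control replicate 1. None of these 6 passed against both controls (limma adjusted p from 0.122 for GNAO1 to 0.290 for TMEM74).

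Against control replicate 1 alone, 1853 genes were called (14.7%), 824 higher (6.53%) and 1029 lower (8.16%). This comparison rests on 1 control array, which is assumed to vary as the hairpin arrays do, and the smallest adjusted p was 0.0238. Leaving out any 1 of the 3 EEF1D-1893 arrays brought both counts to 0, as did fitting only the 4 arrays compared. Control replicate 2 also lay below all 3 hairpin arrays for 473 of the 824 genes and above them for 421 of the 1029. Scaling set the split between directions: 44.5% of the called genes were higher here, against 62.8% when arrays were scaled by their median and 57.0% after quantile normalization. The median log2 difference over all genes was -0.19 against control replicate 1, 0.08 against control replicate 2 and -0.03 against both.

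Several of the largest calls on the shared slide were not seen against the other control. KITLG, the ligand of the KIT receptor, read -1.45, -1.40 and -1.22 with EEF1D-1893, -3.60 in control replicate 1 and -1.21 in control replicate 2. NES, the intermediate filament nestin, read -2.00, -1.30 and 0.04 against 2.42 and -1.43. SKAP1, an adaptor of T-cell receptor signalling, read -4.70, -5.30 and -5.38 against -2.09 and -5.29. In all 3 genes control replicate 2 lay among or within 0.2 log2 units of the hairpin arrays, and control replicate 1 stood apart. Control replicate 2 also lay among the hairpin arrays for UBE2E1 (2.38 against control replicate 1), CLMP (2.11), TRIM8 (2.03), ENTPD1 (-3.71) and ATP6V1C2 (-4.16).

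For other large calls both controls lay on the same side. EBD, enteric beta-defensin, an antimicrobial peptide of epithelia, read -4.30, -3.48 and -2.34 with EEF1D-1893 and 0.37 and 0.17 in the controls. It was lower by a log2 difference of -3.75 (SE 0.78) against control replicate 1 (limma adjusted p = 0.0364) and -3.65 (SE 0.56) against both (adjusted p = 0.165). Its 4 probes ranged from -3.75 to -1.32 against control replicate 1 and from -3.65 to 0.0012 against both. LFNG, a glycosyltransferase that modifies Notch receptors, read -0.74, -1.13 and -0.24 against 3.03 and 1.19. FGD3, an exchange factor of the Cdc42 family, read 1.04, 0.71 and 0.19 against 3.57 and 2.16. LFNG fell by 3.73 and FGD3 fell by 2.93 on the log2 scale against control replicate 1. The weakest of the 3 LFNG probes gave -0.51 there, and the weakest of the 4 FGD3 probes gave -2.06. GSTT2, a glutathione transferase (-3.16), DYSF, a membrane repair protein (-2.99, the other probe at -0.13), and CRNN (-3.12) also had both controls above. On the higher side this held for EVI2A (2.41), TOX (2.27, the other probe at 0.097), POLK, a polymerase of DNA damage bypass (2.06, with probes from -0.35 to 2.06), PLCB4, a phospholipase C (2.04), CRKL, a signalling adaptor (1.99), and EDNRA, an endothelin receptor (1.95).

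Sterol synthesis genes were mostly lower with EEF1D-1893, on a list of cholesterol synthesis and uptake genes with 37 measured members. The list is a description without a test, and its median log2 difference was -0.34 against both controls, -0.47 against control replicate 1 and -0.12 against control replicate 2, beside -0.03, -0.19 and 0.08 over all genes. All 3 hairpin arrays lay below both controls for 12 members (32.4%) and above both for 1 (2.7%), beside 14.6% and 13.7% of all genes. Against control replicate 1 the test called 11 members lower and 1 higher, where it called 8.16% of all genes lower and 6.53% higher. Among the 21 enzymes of the pathway, 17 were below 0, 8 lay below both controls in every hairpin array and 9 were called lower against control replicate 1. Over all 12617 genes, 6711 were below 0.

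INSIG1, which holds the sterol regulator SREBP in the endoplasmic reticulum and is itself a target of SREBP, read -0.62, -0.68 and -0.12 with EEF1D-1893 and 0.73 and 0.59 in the controls. Both controls lay above every hairpin array, with log2 differences of -1.13 (SE 0.22, limma adjusted p = 0.211) against both and -1.20 (SE 0.27, adjusted p = 0.0422) against control replicate 1. LSS, lanosterol synthase, read -1.04, -0.86 and -0.84 against 0.39 and -0.23, with differences of -0.99 (SE 0.20) and -1.30 (SE 0.13, adjusted p = 0.0238). Its second control was the nearer one to the hairpin arrays. IDI1, which isomerises the isoprenoid building block, read 1.14, 1.29 and 1.34 against 2.31 and 1.72. MVD, the last enzyme of the mevalonate branch, read 1.06, 1.12 and 1.36 against 2.38 and 1.59. SQLE, squalene epoxidase, read 3.33, 3.34 and 3.63 against 4.44 and 3.82. In these 3 enzymes control replicate 2 lay between the hairpin arrays and control replicate 1, and all 3 fell against control replicate 1, by 1.05 (IDI1), 1.20 (MVD) and 1.01 (SQLE) on the log2 scale. The SREBP genes, named after their values were seen, differed: SREBF1 read -1.33, -1.73 and -1.74 against -1.10 and -1.08, and SREBF2 read 4.37, 4.32 and 4.38 against 4.39 and 4.06.

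For FASN, ACSS2 and ACACA, enzymes of fatty acid synthesis named for their small p, both controls also lay above the hairpin arrays. FASN, fatty acid synthase, read 5.01, 4.75 and 4.88 with EEF1D-1893 and 5.93 and 5.67 in the controls, with a log2 difference of -0.92 (SE 0.16, limma adjusted p = 0.196) against both controls and -1.05 (SE 0.17, adjusted p = 0.0271) against control replicate 1. ACSS2, which activates acetate, the main carbon source of milk fatty acids in ruminants, read -0.83, -0.63 and -1.02 against 0.02 and -0.14. ACACA, acetyl-CoA carboxylase, read -2.91, -3.29 and -2.86 against -2.26 and -2.35. In each of these genes the controls lay within 0.3 log2 units of each other and above every hairpin array. ACSL3, an acyl-CoA synthetase, read 2.08, 1.87 and 1.86 against 3.32 and 2.44, and SLC27A3, of the fatty acid transport family, read -3.16, -3.20 and -3.25 against -2.76 and -2.27. Over the 52 measured milk fat genes the median was -0.18 against both controls and turned from -0.42 against control replicate 1 to 0.09 against control replicate 2. All 3 hairpin arrays lay below both controls for 11 members (21.2%, beside 14.6% of all genes) and above both for 1 (1.9%, beside 13.7%). Of the 15 genes of acyl chain synthesis and desaturation, 5 lay below both controls in every hairpin array (33.3%) and 0 above. These 15 genes had a median of -0.51 against both controls, with 12 below 0, and of -0.20 against control replicate 2, with 8 below 0. Of all 12617 genes, 6711 were below 0 against both controls and 5193 against control replicate 2.

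**Figure D3:**
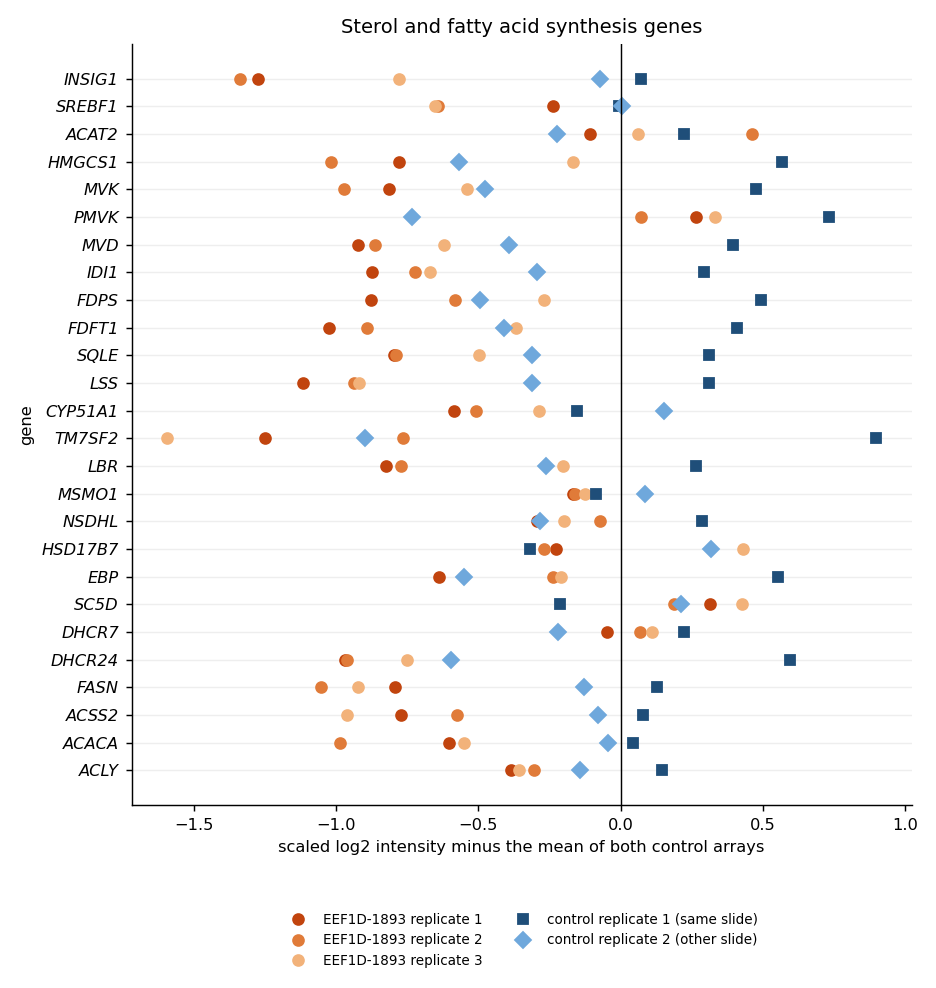
Scaled log2 signal minus the mean of both control arrays (horizontal axis) for INSIG1, SREBF1, measured enzymes of cholesterol synthesis and 4 genes of fatty acid synthesis. Circles are the EEF1D-1893 arrays, squares control replicate 1 and diamonds control replicate 2. Every circle lies left of both controls for INSIG1, LSS, FASN and ACSS2, while control replicate 2 lies among the circles for genes such as HMGCS1 and FDPS.

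Genes of protein folding in the endoplasmic reticulum (ER) were mostly higher. The unfolded protein response raises ER chaperones through the factors XBP1 and ATF6 when unfolded protein accumulates. Of 33 measured members of the ER list, 26 were above 0, beside 46.8% of all genes. The median log2 difference was 0.31 against both controls, 0.16 against control replicate 1 and 0.31 against control replicate 2. All 3 hairpin arrays lay above both controls for 15 members (45.5%, beside 13.7% of all genes) and below both for 0. Against control replicate 1 the test called 5 members higher and 1 lower, where it called 6.53% of all genes higher and 8.16% lower. The median stayed above 0 under each of the 4 other scalings and normalizations, at 0.28 to 0.36 against both controls.

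XBP1 read 4.14, 4.27 and 4.33 with EEF1D-1893 and 3.61 and 3.49 in the controls. DNAJB9, an ER co-chaperone, read 1.27, 1.28 and 1.35 against 0.30 and 0.78, and DNAJB11, another, read 2.81, 2.86 and 3.01 against 2.20 and 2.32. All hairpin arrays of these genes lay above both controls, with log2 differences of 0.70 (SE 0.15), 0.76 (SE 0.17) and 0.64 (SE 0.16), none of which passed against both controls (limma adjusted p = 0.211 to 0.225). DNAJB9 rose against control replicate 1 by 1.00 (SE 0.13, adjusted p = 0.0239). MANF, a secreted ER stress protein, read 5.86, 5.88 and 6.09 against 5.44 and 5.15, and ERO1A, an oxidase of disulfide formation, read 0.61, 0.24 and 0.78 against 0.06 and -0.27. The ATF4 list of the integrated stress response, with 25 measured members, had a median of -0.25 against both controls, -0.35 against control replicate 1 and -0.02 against control replicate 2. Of its members 7 lay below both controls (28.0%, beside 14.6% of all genes) and 2 above (8.0%, beside 13.7%). ATF4 itself read 5.54, 5.47 and 5.62 against 6.29 and 5.69, and its target GDF15 read -4.96, -5.27 and -3.14 against -2.23 and -2.11.

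**Figure D4:**
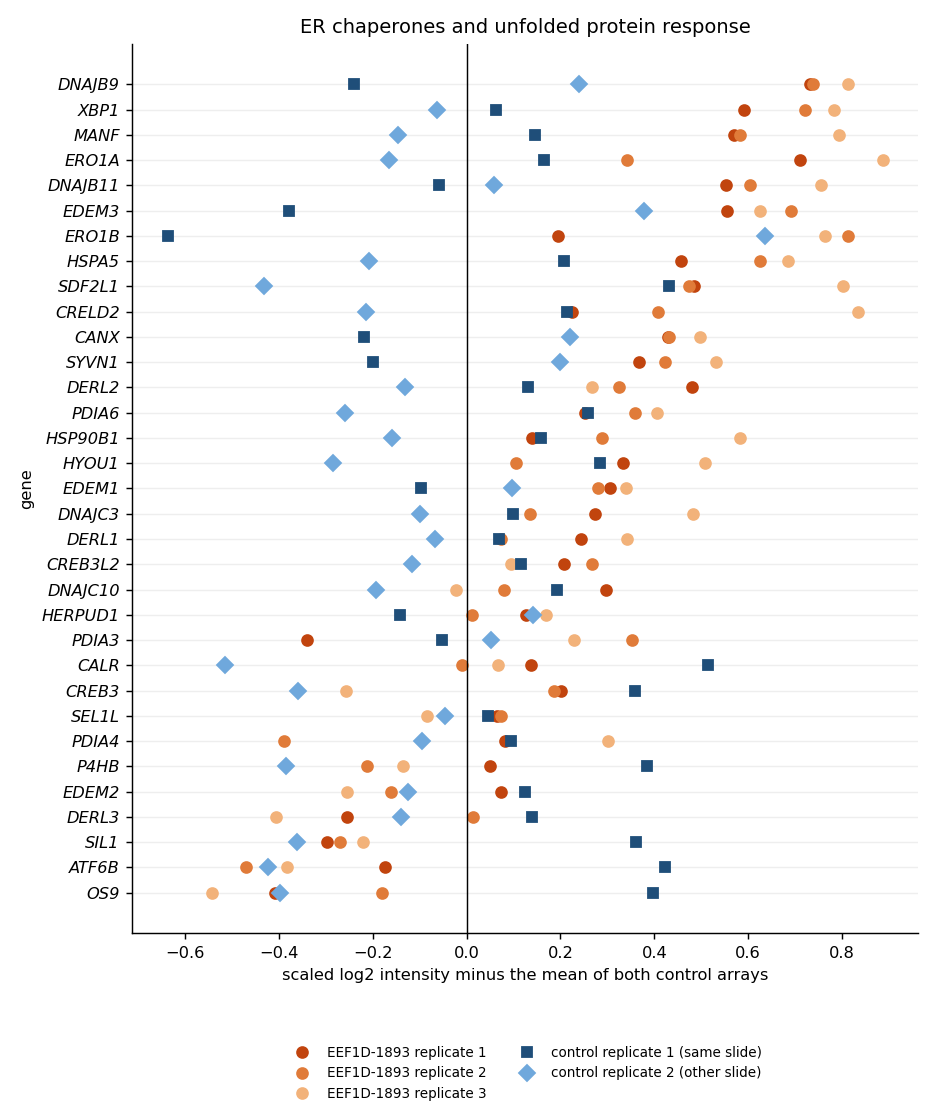
Scaled log2 signal minus the mean of both control arrays (horizontal axis) for the 33 measured ER chaperone and unfolded protein response genes, ordered by their mean difference. Circles are the EEF1D-1893 arrays, squares control replicate 1 and diamonds control replicate 2. For 15 genes, mainly near the top, every circle lies right of both controls, and for 0 genes does every circle lie left of both.

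Other parts of the translation machinery had no common direction. Of 37 measured initiation factors, 8 lay above both controls in every hairpin array (21.6%, beside 13.7% of all genes) and 5 below (13.5%, near the 14.6% of all genes), with a median of 0.10. EIF2S1, the alpha subunit of eIF2, read 3.24, 3.22 and 3.22 with EEF1D-1893 against 2.18 and 2.74, and EIF4E, the cap-binding protein, read 2.59, 2.54 and 2.65 against 1.43 and 2.26. Against control replicate 1, EIF2S1 rose by 1.04 and EIF4E by 1.17 on the log2 scale (limma adjusted p = 0.0238 for both). EEF2K, the kinase that inhibits EEF2, read 1.33, 1.31 and 0.95 against 2.14 and 1.60, and fell by 0.94 against control replicate 1. The 77 cytosolic ribosomal protein genes had a median of -0.13 against both controls, 0.08 against control replicate 2 and -0.01 against both after quantile normalization, so their direction turned with the control and lay near 0 with the normalization. Of the 35 aminoacyl-tRNA synthetases, 7 lay below both controls (20%, beside 14.6% of all genes) and 0 above, and MARS1 read -0.15, -0.39 and -0.14 against 0.89 and 0.07.

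Of 13 measured members of the milk protein and lactose list, 1 lay above both controls in every hairpin array (7.7%) and 2 below (15.4%, near the 14.6% of all genes). CSN2, beta-casein, read 0.76, 0.91 and 0.76 with EEF1D-1893 and 1.54 and 0.86 in the controls, so the second control overlapped, and the log2 difference against control replicate 1 was -0.73 (limma adjusted p = 0.0281). The 3 CSN2 probes ranged from -0.73 to 0.80 in that comparison, so they disagreed in sign. In prolactin signalling, which drives casein transcription through STAT5, NFIB read 1.74, 1.56 and 1.91 against 2.30 and 2.70, STAT3 read 1.19, 1.53 and 1.25 against 2.14 and 1.84, and SOCS2, a feedback inhibitor, read -2.59, -3.06 and -2.79 against -4.22 and -3.68. These 3 genes kept the groups apart without passing against both controls (adjusted p = 0.22 to 0.286).

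In glucose metabolism, HKDC1, a hexokinase, read 0.73, 1.07 and 1.24 with EEF1D-1893 and 2.24 and 2.84 in the controls, a log2 difference of -1.53 (SE 0.23, limma adjusted p = 0.165). SLC2A4, the insulin-responsive glucose transporter, read -2.72, -3.13 and -2.11 against -0.34 and -0.65, a difference of -2.16 (SE 0.33). Of its 4 probes 3 had that sign, and the remaining probe gave 2.58 against both controls, so the probes disagreed. PFKP, a phosphofructokinase, read 2.08, 2.19 and 2.21 against 3.29 and 2.54. All 3 were called lower against control replicate 1. Of 32 measured members of that list, 7 lay below both controls (21.9%, beside 14.6% of all genes) and 2 above (6.2%, beside 13.7%). Of 3 measured FOXO factors, which insulin signalling through AKT holds out of the nucleus, 2 lay below both controls. FOXO4 read -1.29, -1.13 and -1.28 against -0.32 and -0.62, and FOXO1 read 0.22, 0.12 and 0.43 against 0.90 and 0.83. Both fell against control replicate 1, by 0.91 and 0.65 on the log2 scale. FOXO3, named after its values were seen, overlapped the controls, at -1.62, -1.26 and -2.06 against -2.10 and -1.11.

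Apoptosis genes are given as a whole and by role. Over all 29 measured members, 5 lay above both controls in every hairpin array (17.2%) and 6 below (20.7%), with a median of -0.04. Over all genes these shares were 13.7% and 14.6%. Of 9 measured caspases and apoptosome genes, 4 lay above both controls (44.4%) and 0 below, with a median of 0.40 (0.49 against control replicate 1, 0.29 against control replicate 2). Of 11 BCL2 family genes 4 lay below (36.4%) and 0 above, with a median of -0.19 that turned from -0.50 against control replicate 1 to 0.03 against control replicate 2. CYCS, cytochrome c, read 2.70, 2.66 and 2.62 against 1.66 and 2.02. BCL2, which restrains cytochrome c release, read -1.21, -1.10 and -0.73 against 0.83 and -0.30. Both passed against control replicate 1, at log2 differences of 0.99 and -1.84, and neither passed against both controls (limma adjusted p = 0.211 and 0.225). Of 47 mitosis genes 40 were below 0, beside 6711 of all 12617 genes. The mitosis list had a median of -0.34 (-0.45 against control replicate 1, -0.17 against control replicate 2), and 5 members lay below both controls in every hairpin array (10.6%, beside 14.6% of all genes). The third EEF1D-1893 array stood apart on that list: the median deviation from the mean of the 5 arrays was -0.38, -0.42 and 0.46 in the hairpin arrays and 0.32 and 0.06 in the controls.

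Of 45 measured NF-kB and inflammatory cytokine genes, 9 lay above both controls in every hairpin array (20%, beside 13.7% of all genes) and 5 below (11.1%, beside 14.6%), with a median of 0.11. The 9 chemokines had a median of -0.05, with 4 above 0 and 5 below. CXCL8, the neutrophil chemokine, read -1.01, -1.71 and -0.17 with EEF1D-1893 and -3.46 and -2.36 in the controls, and CCL20, a chemokine of epithelia, read -1.75, -1.40 and 0.20 against -4.27 and -2.98. Over the 3 CCL20 probes the log2 difference ranged from 0.595 to 2.64 against both controls and from -0.10 to 3.29 against control replicate 1. IL1RN, the interleukin-1 receptor antagonist, read 3.01, 3.44 and 3.22 against 2.66 and 2.30. The groups did not overlap in these 3 genes, and none passed against either choice of control. Interferon-stimulated genes, which a cell can induce on sensing double-stranded RNA, had a median of -0.39 over 31 measured members against both controls, with 10 below both controls (32.3%, beside 14.6% of all genes) and 2 above. Their median was -0.50 against control replicate 2 and -0.08 against control replicate 1, the latter 0.02 with median scaling. The sensor EIF2AK2 read 0.95, 0.85 and 0.43 against 1.72 and 1.12. Its other probe gave a log2 difference of -0.054 against both controls and 0.48 against control replicate 1. TLR2, a receptor for bacterial lipoproteins, read 4.36, 4.83 and 4.65 against 5.29 and 5.02, but its log2 difference of -0.54 turned to 0.0021 with the mean of its probes.

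Of 70 measured oxidative phosphorylation genes, 20 lay above both controls in every hairpin array (28.6%, beside 13.7% of all genes) and 1 below, although the median was 0.05 against both controls and -0.06 against control replicate 1. NDUFB3, a subunit of complex I, read 3.68, 3.43 and 3.43 with EEF1D-1893 and 2.79 and 3.20 in the controls. UQCRB, a subunit of complex III, read 5.12, 5.28 and 5.15 against 4.67 and 4.84. Among 38 proteasome genes 5 lay above both controls (13.2%) and 7 below (18.4%), beside 13.7% and 14.6% of all genes. PSMD14, the deubiquitinase of the regulatory particle, read 3.86, 3.88 and 3.87 against 2.91 and 3.46, and rose by 0.97 on the log2 scale against control replicate 1 (limma adjusted p = 0.0238). PSMB10, a subunit of the immunoproteasome, lay on the other side, at -4.32, -4.77 and -3.76 against -2.78 and -3.45, without passing (adjusted p = 0.0898 there).

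The list of extracellular matrix and TGF-beta genes, with 44 measured members, had a median of 0.004, with 22 above 0 and 22 below. In every hairpin array 7 lay above both controls (15.9%, beside 13.7% of all genes) and 2 below (4.5%, beside 14.6%). Of its 15 genes of TGF-beta signalling and targets, 6 lay above both controls (40.0%) and 0 below, with a median of 0.35. The medians of its other roles were -0.16 for collagens, -0.07 for glycoproteins and -0.35 for matrix turnover. TGFBI, a secreted matrix protein induced by TGF-beta, read 3.27, 2.73 and 3.55 against 1.85 and 0.97, and the receptor TGFBR1 read -2.60, -2.81 and -2.86 against -3.76 and -3.11. COL18A1, a basement membrane collagen, lay on the opposite side, at 3.43, 3.59 and 3.89 against 4.45 and 4.66. Only TGFBR1 of these 3 passed against control replicate 1 (1.00, limma adjusted p = 0.0281), and none passed against both. The list of p53 targets and cell cycle inhibitors had 28 measured members and a median of 0.11 against both controls. In every hairpin array 4 of them lay above both controls (14.3%, near the 13.7% of all genes) and 3 lay below. The test called 4 members higher against control replicate 1 and 0 lower, where it called 6.53% of all genes higher and 8.16% lower. FAS, a death receptor, read 1.44, 1.88 and 1.76 against 0.19 and 0.91, without passing either test. SLC38A9, the lysosomal amino acid sensor of mTORC1, read 0.16, 0.28 and 0.22 against -0.61 and -0.30, and rose by 0.83 against control replicate 1 (adjusted p = 0.0271).

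**Figure D5:**
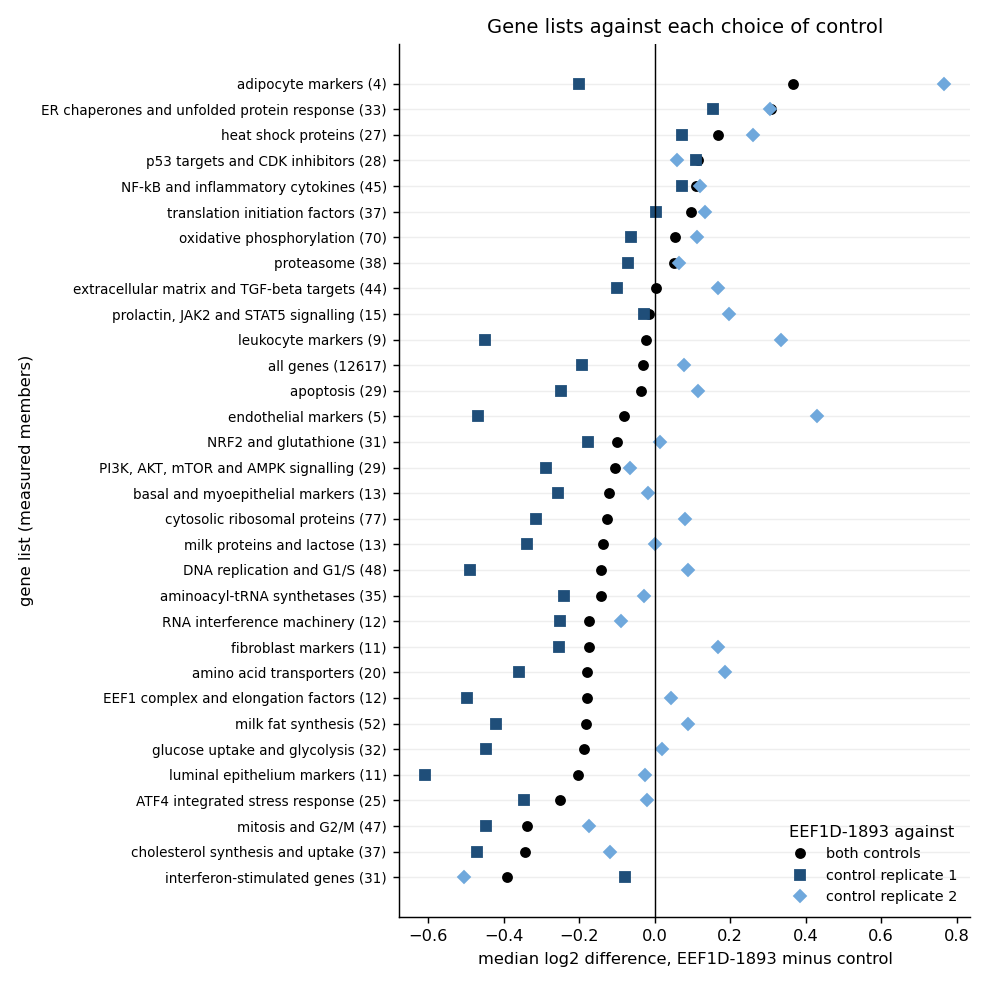
Median log2 difference between the EEF1D-1893 arrays and the controls (horizontal axis) for each gene list, with the number of measured members in brackets. Circles use both controls, squares control replicate 1 and diamonds control replicate 2. Several lists keep their sign for every choice of control, among them the ER and heat shock lists right of 0. The cholesterol, mitosis and interferon lists are among those that stay left of 0. The milk fat list goes from -0.42 to 0.09 and the list of all genes from -0.19 to 0.08.

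The cell type of the arrays was checked against markers. Of 15 luminal epithelium markers, 11 were measured and all 11 were well above background on all 5 arrays. The summed signal of these markers, in multiples of the 75th percentile, was 494 to 569 in the hairpin arrays, 961 in control replicate 1 and 527 in control replicate 2. Basal and myoepithelial markers were present too, with 12 of 14 well above background on all 5 arrays and sums of 317 to 479 in the hairpin arrays, 442 and 415 in the controls. All 3 hairpin arrays lay above both controls for 2 of the 13 measured (15.4%, beside 13.7% of all genes) and below both for 2 (15.4%, beside 14.6%). TAGLN, a smooth muscle actin-binding protein, read 6.65, 6.65 and 6.34 against 6.22 and 5.26, and ITGA6, an integrin of basal cells, read 3.39, 3.28 and 3.57 against 2.78 and 3.17. MYLK lay below both controls in every hairpin array, at -4.32, -4.84 and -1.55 against -0.999 and 0.556. Its log2 difference was -3.35 (SE 1.03) against both controls, without passing (limma adjusted p = 0.268). KRT14, a basal keratin, varied within the group, at 1.96, 0.20 and 6.41 with EEF1D-1893 and 4.84 and 6.91 in the controls. OXTR, the oxytocin receptor of myoepithelial cells, was well above background in both controls and in 0 hairpin arrays, at least 2.26-fold lower. Fibroblast markers summed to 171 to 199 in the hairpin arrays, 267 and 144 in the controls. Sums of leukocyte markers were 8.88 to 10.9, against 14.5 and 9.16, those of endothelial markers 0.214 to 0.394, against 0.42 and 0.242, and those of adipocyte markers 0.223 to 1.14, against 0.524 and 0.707. Of these, 8 of 15 leukocyte, 2 of 10 endothelial and 2 of 9 adipocyte markers were well above background on all 5 arrays. Sums are compared between arrays only, not between lists. In bulk RNA, fewer cells of a type and less RNA per cell cannot be told apart, and the part of these marker levels in the results above was not tested.

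The EEF1D-1893 arrays were also set against the EEF1D-1357 arrays, a contrast added after the data were seen in which slide and hairpin cannot be told apart. In limma 0 of 12617 genes passed an adjusted p of 0.05, and 809 (6.41%) had an unadjusted p under 0.05. EBD had the lowest p of the genes named here: it stood at -0.14, 0.66 and 0.94 with EEF1D-1357, so that EEF1D-1893 was lower by a log2 difference of -3.86 (SE 0.50, adjusted p = 0.394). INSIG1 differed by -0.54 (SE 0.19), LSS by -0.60 (SE 0.18), ACSS2 by -0.67 (SE 0.14) and NID2 by 0.86 (SE 0.17), each with an adjusted p of 0.747. EEF1D itself differed by 0.19 (SE 0.32, adjusted p = 0.889).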

How the data were processed

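One-colour Cy3 signals of 8 arrays were used. Per the file headers, the deposited intensity values are background-subtracted processed signals from Agilent Feature Extraction 10.7.3.1; the submitters' processing notes name version 9.1. The other deposited columns used, per the file headers, are 0 or 1 flags for signal above background, saturation (0 spots) and outliers. The deposited table of log2 values served only as an alternative. Of 43653 probes, 214 with an outlier spot were left out. Genes were named through RefSeq annotation of ARS-UCD2.0 (26628 by the probe's own accession, 6478 by symbol, 608 by another accession, 161 by an older symbol; 571 kept the file's symbol and 9207 had none).

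From each log2 intensity the array's 75th percentile was subtracted. A probe had to exceed background clearly on 2 or more arrays, and the brightest per gene was used. limma 3.58.1 (R 4.3.3) was fitted to all 8 arrays, with 1 mean per group (5 residual and 2.13 prior degrees of freedom) and with slide added (4 and 1.72), which compares EEF1D-1893 with control replicate 1. Tests were two-sided, with Benjamini-Hochberg adjustment over 12617 genes and a threshold of 0.05. Gene lists were counted, not tested; some members are not reported here by name. On data simulated with independent noise, the first design recovered 21.2% of genes changed by 1 log2 unit and 74% of those changed by 2. The second recovered 0% and 56.4%. The simulated noise had the spread left by the first design, which includes the difference between the 2 controls. The second design takes that difference out of the spread, so its simulated figures need not hold for the real arrays.

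Named genes were, for each comparison, up to 10 called genes per direction by log2 difference, among genes well above background on all 5 arrays (with both controls: also with the groups apart). Where none was called, the 8 with the smallest p were taken. Added to these were up to 3 genes per direction at background on one side, and, from every list described, the 5 members with the smallest p. The text does not name every gene that this rule picked. The members and lists were chosen with earlier results of these data known. Alternatives covered background correction, normalization, scaling, filters, probe choice, the deposited table, priors, array weights, the arrays fitted, thresholds, blocks and each array left out.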

Additional observations from a re-analysis of the deposited data

How the results depend on the processing

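With both controls, counts of calls stayed at 0 except at an unadjusted p (855 higher, 923 lower), with slide as a block (824 and 1029) and with a control left out; over arrays left out they ranged from 0 to 824 higher and from 0 to 1029 lower. Against control replicate 1 the counts higher and lower were 892 and 528 with median scaling, 400 and 582 with no filter on dim probes, 424 and 504 with the mean of a gene's probes, 1485 and 2329 with array weights, 0 and 0 with only the compared arrays, 1436 and 2328 at an adjusted p under 0.1, 0 and 0 at 0.01, and 1717 and 2919 at an unadjusted p under 0.05; they were 0 to 0 when a hairpin array was left out. EEF1D ranged from -1.29 to -0.31 against both controls and from -1.37 to -1.24 against control replicate 1 over arrays left out. The latter passed with a filter on all 8 arrays (-1.29, limma adjusted p = 0.0436), an intensity trend with a robust prior (-1.29, adjusted p = 0.0473) and array weights (-1.28, adjusted p = 0.0171). EEF1A1 turned to 0.0256 with normexp and quantile normalization and TLR2 to 0.0021 with the mean of probes; the cause was not tested. Replicate numbers did not pair the arrays (r of same-numbered deviations 0.142 and 0.0821 between EEF1D-1893 and control); with the replicate number as a block 0 genes were called in either direction and EEF1D was at -0.64 (adjusted p = 0.409). Signals near background give only bounds, and 2 control arrays limit every comparison.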
